A study of Rattus norvegicus with 20 samples.

Results

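Fatty acid oxidation genes of the mitochondria and peroxisomes were measured in whole mesenteric artery of the rat, which feeds the gut. The members are 32 genes, from carnitine transport to the last thiolase step and 2 regulators, and each was found by its gene name on the array, which names 26214 genes. Where a gene had more than 1 probe, its value came from the brightest, judged by the mean of all 20 arrays. The RNA came from 5 groups of 4 rats labelled as biological replicates, all from Izm colonies, and each sample had its own single-colour Agilent array. Untreated WKY/Izm is the normotensive strain, and the 2K1C and 1K1C groups are WKY/Izm rats with a clipped renal artery, with the other kidney kept (2-kidney 1-clip) or removed (1-kidney 1-clip), for 3 weeks. SHR/Izm, the spontaneously hypertensive rat, and SHRSP/Izm, its stroke-prone relative, were not operated. Every sample is labelled 6 weeks of age, and the labels do not settle whether that is the age at operation or at sampling. The labels give the untreated WKY rats the same 3 weeks, without an operation, and give no such period for SHR and SHRSP. Whether SHR and SHRSP were as old as the WKY rats at sampling is thus not settled. Any such age difference could not be told apart from strain. Because the untreated WKY rats had no operation, a clip cannot be told apart from surgery itself.

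Fatty acids enter the mitochondrial matrix as carnitine esters: carnitine palmitoyltransferase 1 in the outer membrane (Cpt1a, the liver form, and Cpt1b, the muscle form) makes them, the carrier Slc25a20 moves them, and Cpt2 restores the CoA ester. Each turn of beta-oxidation then uses an acyl-CoA dehydrogenase, an enoyl-CoA hydratase, a 3-hydroxyacyl-CoA dehydrogenase and a thiolase, and the electron transfer flavoprotein carries the first electrons to the respiratory chain. Peroxisomes shorten very long and branched chains and hand the products on as carnitine esters. Fat surrounds mesenteric arteries. Brown fat, white fat and muscle all use the pathway, and the nuclear receptor PPAR-alpha, encoded by Ppara, is its best known regulator.

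Levels are on a log2 scale on which 0 is the 75th percentile of the processed signal of all gene spots of an array. Differences are log2 differences between group means with their standard errors, from limma fitted to all 5 groups and 16407 genes, and a gene was called at a Benjamini-Hochberg adjusted p under 0.05. The number of arrays, 4 per group, limits the precision. Of the 32 members 30 passed the filter on dim probes, which asked that every array of some group show the gene well above background. Of these, 29 were well above background on all 20 arrays and Ppara on 18. The other two, Acox2 and Acox3, are given by level only.

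The labelled tissue was borne out by its markers: all 7 measured smooth muscle markers and all 7 endothelial markers were well above background on every array. All 12 white adipocyte markers were too, so fat was part of every sample. Arrays stood apart within groups. Untreated WKY replicate 1 had a Ucp1 level (brown fat uncoupling protein) of 6.43 and 1K1C replicate 3 one of 3.09, against -0.88 or less on the other 18, and 1K1C replicate 2 had the lowest level of the smooth muscle myosin Myh11, 2.91. The arrays of 2K1C filled 1 slide, 1K1C and untreated WKY shared a slide, and SHR and SHRSP shared the third, with 1 scan per slide. Differences of SHR, SHRSP and 2K1C from untreated WKY, and of 1K1C from 2K1C, therefore lie between slides, where group and slide cannot be told apart. The comparisons with untreated WKY share its 4 arrays.

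One member was called. Crot, the peroxisomal carnitine octanoyltransferase, fell in SHR and in SHRSP against untreated WKY. That is 1 of 30 tested members in each comparison, against 1.85% of all genes called in SHR and 2.4% in SHRSP, or 1.01% and 1.24% counting lower genes alone. At an unadjusted p under 0.05 there were 10 members in each, against 2293 and 2732 of the 16407 genes. In 2K1C against untreated WKY limma called 0 members (0.0122% of all genes called), although 21 had an unadjusted p under 0.05, against 3615 genes in all. In 1K1C against untreated WKY it called 0 (0.0% of all genes), with 0 members and 1491 genes at an unadjusted p under 0.05. SHRSP against SHR gave 0 calls (0.36% of all genes), again with 0 members, and 584 genes, at an unadjusted p under 0.05. For 1K1C against 2K1C there were 0 calls (0.0% of all genes), with 26 members and 3536 genes at an unadjusted p under 0.05.

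Below the call threshold most members lay on the same side of 0. The median difference of the 30 members was -0.44 in SHR, -0.38 in SHRSP and -0.69 in 2K1C against untreated WKY, where the medians of all genes were 0.02, 0.00 and 0.03. In each of these 28 of the 30 lay below 0, against 47.4%, 49.5% and 46.5% of all genes. In 1K1C the median was 0.15 and 23 members lay above 0, against a median of 0.10 and 65.4% of all genes. The 1K1C arrays lay above the 2K1C arrays by a median of 0.87 (all genes 0.01), with 28 of 30 members above 0 against 51.8% of all genes. SHRSP and SHR were 0.03 apart in the median, and 16 of 30 lay above 0, against 47.4% of all genes. Groups without overlap were counted as well. All 2K1C arrays lay below all untreated WKY arrays for 13 of 30 members (4.08% of all genes), all SHRSP arrays for 7 (4.96%) and all SHR arrays for 1, Crot (2.8%). All 1K1C arrays lay above all 2K1C arrays for 17 (7.39%). The lowest adjusted p was 0.0978 in 2K1C against untreated WKY and 0.073 in 1K1C against 2K1C.

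**Figure D1:**
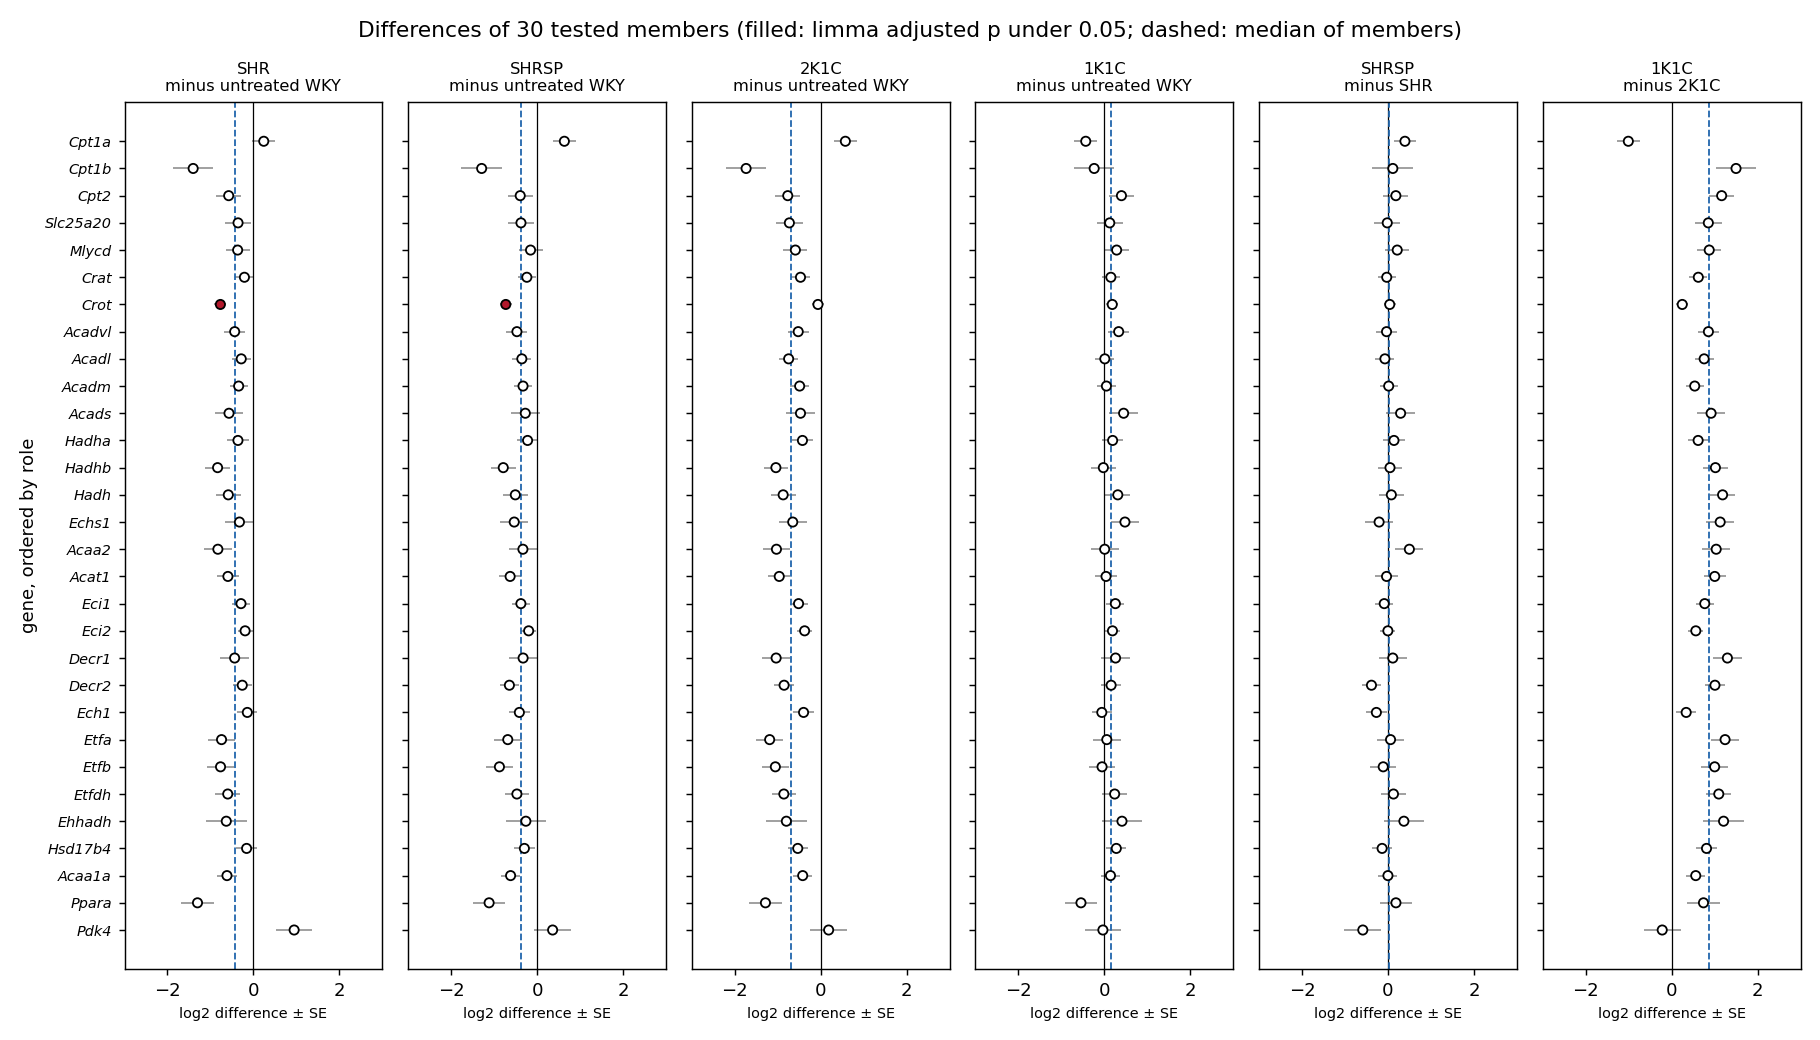
Log2 difference (x axis) with its standard error for each of the 30 tested members (y axis, ordered by role) in 6 comparisons, with filled points for an adjusted p under 0.05 and a dashed line at the median of the members. Crot is the only filled point, in SHR and SHRSP against untreated WKY. Cpt1a lies on the other side of 0 from most members in every comparison except SHRSP minus SHR.

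These counts moved with single arrays, and so did the share of all genes called, given here in parentheses. The 2K1C comparison called 10 members without untreated WKY replicate 4 (5.31% of all genes) and 4 without 2K1C replicate 3 (2.59%), all lower. The comparison of 1K1C with 2K1C called 23 without 1K1C replicate 4 (11.6%), of which 22 were higher and Cpt1a lower, and 5 without 2K1C replicate 3 (1.8%), all higher. The SHR comparison called 7 without SHR replicate 1 (3.36%) and 3 without untreated WKY replicate 4 (4.07%), and the SHRSP comparison 2 without untreated WKY replicate 4 (5.55%). With limma's array weights the calls were 28 in SHR (43.5% of all genes), 16 in SHRSP (30.9%), 19 in 2K1C (25.5%), 2 in SHRSP against SHR (4.86%), 14 in 1K1C against 2K1C (3.8%) and 0 in 1K1C against untreated WKY (2.41%).

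Crot transfers medium-chain acyl groups, the products of peroxisomal shortening, to carnitine. The bases upstream of its start are shown because it is the member that passed the test. They cover chr4:26052874-26053123 (GRCr8, plus strand, RefSeq), 250 bases 5′ to 3′ up to the base before the gene start, with GC boxes (GGGCGG on either strand) in capitals.

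Crot upstream: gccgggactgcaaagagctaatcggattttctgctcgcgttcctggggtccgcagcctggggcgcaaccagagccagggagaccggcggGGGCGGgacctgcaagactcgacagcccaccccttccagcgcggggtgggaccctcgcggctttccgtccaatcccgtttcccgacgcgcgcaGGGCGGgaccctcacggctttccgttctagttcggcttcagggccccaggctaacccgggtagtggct

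This stretch holds 2 GC boxes. The array's only Crot probe lies at chr4:22024030-22024090 on the minus strand in the array's own build, rn4, so the Crot values rest on 1 site. That interval is 61 bases long, for a probe of 60 bases. The gene start above lies on the plus strand of GRCr8. Whether the 2 builds differ in orientation there, or the probe reads the strand opposite to the gene, was not tested. On the untreated WKY arrays Crot measured 0.90, 1.40, 1.22 and 1.26, on the 2K1C arrays 1.09, 1.24, 1.31 and 0.88, and on the 1K1C arrays 1.27, 1.58, 1.42 and 1.26. It measured 0.64, 0.57, 0.30 and 0.21 on the SHR arrays and 0.52, 0.51, 0.57 and 0.28 on the SHRSP arrays. All 8 arrays of the hypertensive strains lay below all 12 arrays of WKY rats, operated or not. The same line divides the slides, as these 8 arrays shared slide 3 and the 12 lay on slides 1 and 2. The part of the slide in this separation was not tested. The share of all genes that separate these 8 arrays from these 12 was not counted. Whether the strains differ in sequence under this 1 probe was not tested. The difference was -0.77 ± 0.14 in SHR (1.70-fold lower, 95% interval -1.06 to -0.48, limma adjusted p 0.00602) and -0.73 ± 0.14 in SHRSP (1.66-fold lower, 95% interval -1.02 to -0.43, limma adjusted p 0.00771). It was -0.06 ± 0.14 in 2K1C, 0.18 ± 0.14 in 1K1C, and SHRSP and SHR differed by 0.04 ± 0.14, with a 95% interval of -0.25 to 0.33.

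The Crot call held in both strains whichever single array of the 2 groups was left out, with limma adjusted p from 0.0029 to 0.0315 in SHR and from 0.00341 to 0.0376 in SHRSP. It was lost when only the 2 groups compared entered the fit (adjusted p 0.119 and 0.0573) and on the deposited values with no scaling between arrays (0.144 and 0.246), while the direction stayed the same. Over the alternatives other than leaving out an array the adjusted p ran from 7.75e-06 to 0.144 in SHR and from 1.95e-05 to 0.246 in SHRSP. With the mean of the white adipocyte markers as a covariate, an alternative added after seeing the data, the differences were -0.72 and -0.62 with adjusted p of 0.00112 and 0.00412. Markers of other cell types were called in these same comparisons. Albumin (Alb), a hepatocyte marker, rose by 2.18 ± 0.54 in SHR (limma adjusted p 0.0468) and by 2.40 ± 0.54 in SHRSP (0.0234). The neuronal marker Prph fell by 3.50 ± 0.85 in SHR (0.0438) and fell by 3.51 ± 0.85 in SHRSP (0.0349), and Gap43 fell by 2.97 ± 0.70 (0.039) and fell by 3.02 ± 0.70 (0.0278). Over their whole lists, the medians in SHR and SHRSP were 1.38 and 1.58 for hepatocytes, -2.89 and -2.79 for neurons, 1.84 and 1.11 for exocrine pancreas and intestine (all 6 above 0 in both), -0.83 and -1.59 for mesothelium, 0.24 and 0.97 for lymphocytes, -0.020 and 0.76 for striated muscle and -0.23 and -0.07 for macrophages. Smooth muscle markers had medians of 0.38 in SHR and 0.41 in SHRSP, with 5 of 7 above 0 in each. Endothelial markers had medians of 0.61 and 0.44, with 6 of 7 above 0 in each. The part of other cell types in the Crot result was not tested.

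Among the genes of entry into mitochondria, the 2 forms of carnitine palmitoyltransferase 1 lay on opposite sides of 0 in SHR, SHRSP and 2K1C against untreated WKY and in 1K1C against 2K1C, and on the same side in 1K1C against untreated WKY and in SHRSP against SHR. Cpt1b, the muscle form, which brown and white adipocytes of rodents also use, measured 3.54, 1.60, 1.73 and 0.93 on the untreated WKY arrays and -0.41, 0.14, 0.72 and 0.41 on the 2K1C arrays. It measured 2.01, 2.00, 1.77 and 1.07 in 1K1C, 1.89, 0.46, 0.03 and -0.19 in SHR and 0.66, 0.81, 0.66 and 0.51 in SHRSP. Every 2K1C and SHRSP array lay below every untreated WKY array, while SHR replicate 1 lay among the WKY values and the other 3 below them. The differences from untreated WKY were -1.74 ± 0.47 in 2K1C (limma adjusted p 0.0994), -1.40 ± 0.47 in SHR (0.16), -1.29 ± 0.47 in SHRSP (0.176) and -0.24 ± 0.47 in 1K1C (0.873). None passed the threshold. Untreated WKY replicate 1, also the array with the highest Ucp1, gave the highest value. A second Cpt1b probe, well above background on 7 arrays, gave -2.16 in 2K1C, -1.71 in SHR and -1.36 in SHRSP.

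Cpt1a, the liver form, measured -1.24, -1.78, -1.29 and -1.43 on the untreated WKY arrays, -0.72, -0.87, -0.85 and -1.01 in 2K1C and -2.15, -2.19, -1.80 and -1.33 in 1K1C. In SHR it measured -1.89, -0.57, -1.21 and -1.10, and in SHRSP -1.22, -0.92, -0.12 and -0.94. The 2K1C and SHRSP arrays all lay above the untreated WKY arrays, and no 1K1C array reached a 2K1C array. The difference of 1K1C from 2K1C was -1.01 ± 0.26 with a 95% interval of -1.56 to -0.45 and a limma adjusted p of 0.0735. Against untreated WKY it was 0.57 ± 0.26 in 2K1C and 0.64 ± 0.26 in SHRSP, with adjusted p of 0.215 and 0.236. SHRSP replicate 3 held the highest value, as it did for Pdk4.

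**Figure D2:**
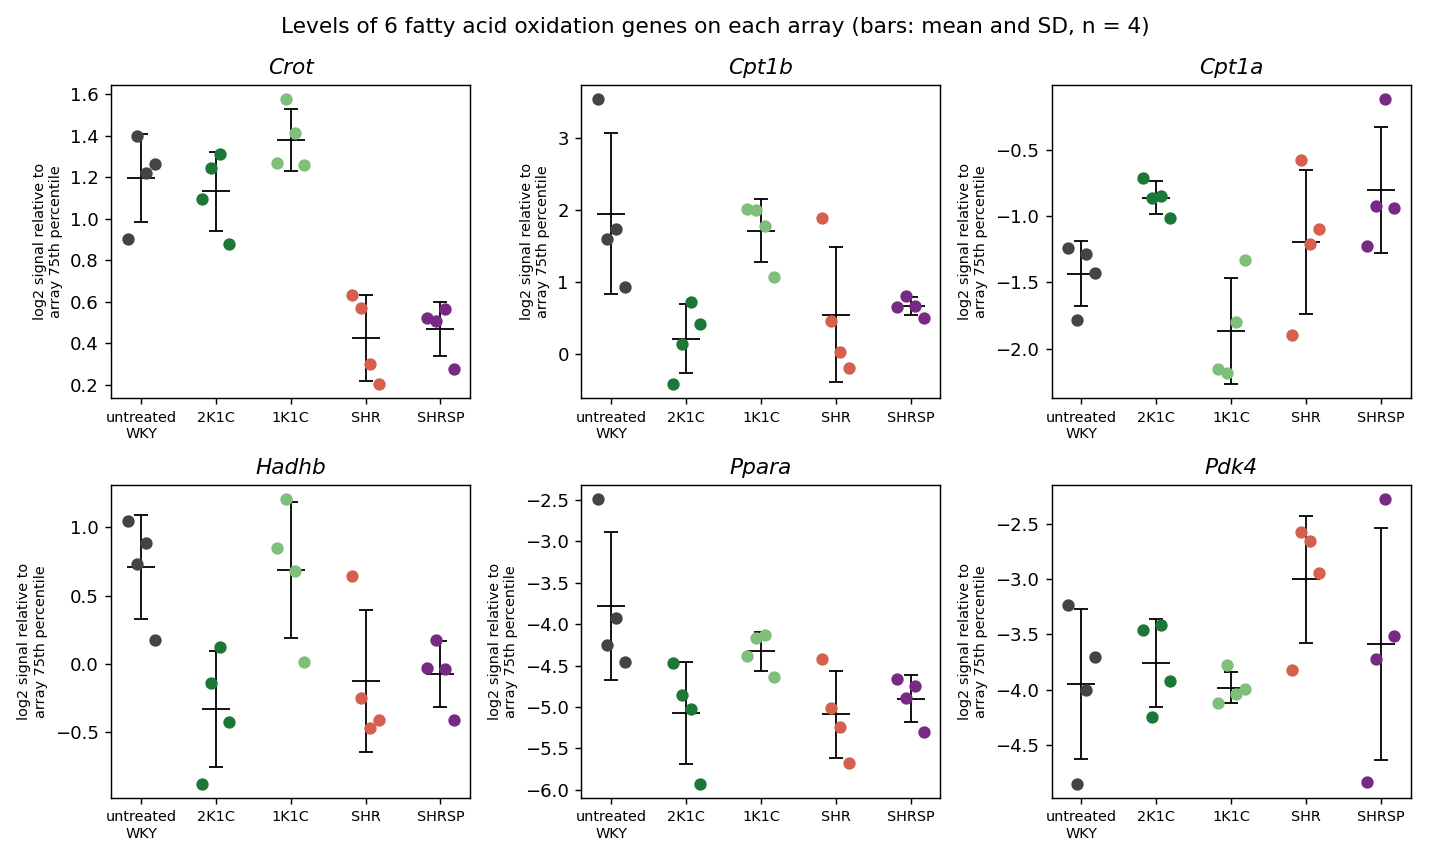
Level on each array (points, y axis: log2 level, 0 being the 75th percentile of the array, with a scale of its own in each panel) for 6 members in the 5 groups (x axis), with the mean and SD of 4 arrays as bars. In the Crot panel the 8 SHR and SHRSP points lie below the 12 WKY points, while in the Cpt1b and Hadhb panels 1 SHR point, replicate 1, sits with the untreated WKY points.

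The other entry genes lay below 0, as Cpt1b did, in SHR, SHRSP and 2K1C against untreated WKY, and above 0 in 1K1C against untreated WKY, where Cpt1b did not. Cpt2 differed by -0.77 ± 0.29 in 2K1C and by 1.17 ± 0.29 between 1K1C and 2K1C, the carrier Slc25a20 by -0.73 ± 0.31 and 0.86 ± 0.31, and Mlycd, which breaks down the Cpt1 inhibitor malonyl-CoA, by -0.59 ± 0.28 and 0.88 ± 0.28. Of this group of 5, 4 lay below 0 in each of SHR, SHRSP and 2K1C, with Cpt1a the exception. Crat, carnitine acetyltransferase, differed by -0.47 ± 0.21 in 2K1C and -0.21 ± 0.21 in SHR. None of these passed the threshold, with limma adjusted p of 0.157, 0.187, 0.227 and 0.208 in 2K1C.

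The 4 acyl-CoA dehydrogenases, which take the first step for very long (Acadvl), long (Acadl), medium (Acadm) and short chains (Acads), all lay below 0 in SHR, SHRSP and 2K1C and above 0 in 1K1C. Acadl measured 4.51, 3.92, 4.06 and 3.30 on the untreated WKY arrays, 3.20, 3.18, 3.50 and 2.93 in 2K1C and 4.11, 4.25, 3.90 and 3.58 in 1K1C. It measured 4.00, 3.70, 3.30 and 3.65 in SHR and 3.62, 3.75, 3.67 and 3.34 in SHRSP. Every 1K1C array was higher than every 2K1C array, by 0.76 ± 0.22 in the mean (limma adjusted p 0.0777). Against untreated WKY the 2K1C difference was -0.75 ± 0.22 (0.111), with 1 WKY array, replicate 4, inside the 2K1C range.

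Acadm measured 3.91, 3.11, 3.07 and 2.77 in untreated WKY, 2.63, 2.88, 3.02 and 2.37 in 2K1C and 3.35, 3.49, 3.31 and 2.90 in 1K1C. In SHR it was 3.15, 2.85, 2.64 and 2.85, and in SHRSP 2.87, 2.98, 3.09 and 2.61. These groups overlapped throughout, apart from untreated WKY replicate 1 at the top. The difference was -0.49 ± 0.21 in 2K1C (limma adjusted p 0.196), -0.34 ± 0.21 in SHR and -0.33 ± 0.21 in SHRSP. For Acadvl the 2K1C difference was -0.52 ± 0.24, and for Acads it was -0.47 ± 0.33.

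The steps after the dehydrogenase are carried by a group of 6 genes. Hadha and Hadhb encode the alpha and beta subunits of the mitochondrial trifunctional protein, which carries hydratase, long-chain 3-hydroxyacyl-CoA dehydrogenase and thiolase activity. The pair is shown because the genes lie head to head, with their starts 301 bases apart, and because the subunits of 1 complex can be compared. Their probes, of 60 bases each, lie at chr6_random:452613-452672, plus strand (Hadha), and chr6:26144500-26144559, minus strand (Hadhb), in rn4. The stretch upstream of Hadhb covers chr6:31907501-31907750 (GRCr8, minus strand, RefSeq) with GC boxes in capitals, and lies between the 2 genes.

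Hadha probe: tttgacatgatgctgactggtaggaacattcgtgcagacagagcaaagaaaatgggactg
Hadhb probe: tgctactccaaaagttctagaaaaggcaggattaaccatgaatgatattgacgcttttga
Hadhb upstream: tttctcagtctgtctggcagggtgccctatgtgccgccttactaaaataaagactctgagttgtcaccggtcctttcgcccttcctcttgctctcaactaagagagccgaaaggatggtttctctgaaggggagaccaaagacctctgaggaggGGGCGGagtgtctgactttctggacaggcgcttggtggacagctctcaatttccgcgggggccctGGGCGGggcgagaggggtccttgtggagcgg

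Hadhb measured 1.05, 0.73, 0.89 and 0.18 on the untreated WKY arrays, -0.88, -0.14, 0.12 and -0.43 in 2K1C and 0.85, 1.21, 0.68 and 0.01 in 1K1C. It measured 0.64, -0.25, -0.47 and -0.41 in SHR and -0.03, 0.17, -0.04 and -0.41 in SHRSP. The 2K1C and SHRSP arrays all lay below the untreated WKY arrays, whose lowest was replicate 4. The Hadhb difference was -1.04 ± 0.29 in 2K1C (2.06-fold lower, limma adjusted p 0.102), -0.83 ± 0.29 in SHR (0.172) and -0.79 ± 0.29 in SHRSP (0.175). In 1K1C it was -0.02 ± 0.29, with a 95% interval of -0.63 to 0.58.

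Hadha measured 1.68, 1.41, 1.39 and 0.83 in untreated WKY, 0.66, 0.87, 0.92 and 1.17 in 2K1C and 1.97, 1.82, 1.31 and 0.99 in 1K1C. In SHR it was 1.53, 0.90, 0.58 and 0.85, and in SHRSP 1.00, 1.26, 1.47 and 0.70. Its groups overlapped in every comparison. The difference was -0.42 ± 0.25 in 2K1C and 0.62 ± 0.25 between 1K1C and 2K1C, with limma adjusted p of 0.312 and 0.159. A second Hadha probe gave -0.96 and 0.95 in these comparisons, so the 2 probes of the gene disagreed in size. Whether Hadha and Hadhb differed from each other was not tested.

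Echs1, the short-chain enoyl-CoA hydratase, measured 4.26, 4.71, 4.65 and 4.08 in untreated WKY, 3.56, 4.06, 3.75 and 3.73 in 2K1C and 5.38, 5.62, 4.53 and 4.10 in 1K1C. It measured 5.13, 3.82, 3.62 and 3.83 in SHR and 3.99, 4.10, 3.94 and 3.54 in SHRSP. No 2K1C array reached an untreated WKY or a 1K1C array, and SHR replicate 1 stood above the rest of its group. The difference was 1.13 ± 0.33 between 1K1C and 2K1C (limma adjusted p 0.0765), and, against untreated WKY, -0.65 ± 0.33 in 2K1C and 0.48 ± 0.33 in 1K1C.

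Acaa2, the mitochondrial thiolase of medium chains, measured 2.83, 2.50, 2.58 and 1.73 in untreated WKY, 0.95, 1.36, 1.91 and 1.30 in 2K1C and 2.64, 2.99, 2.38 and 1.65 in 1K1C. It measured 2.46, 1.54, 1.07 and 1.26 in SHR and 2.05, 2.32, 2.27 and 1.68 in SHRSP. SHRSP and SHR overlapped, as SHR replicate 1 exceeded all SHRSP arrays. The difference was -1.03 ± 0.32 in 2K1C, -0.83 ± 0.32 in SHR and -0.33 ± 0.32 in SHRSP, with limma adjusted p of 0.123, 0.242 and 0.643, and 0.50 ± 0.32 between SHRSP and SHR. Acat1, the thiolase that ends isoleucine breakdown and takes part in ketone body use, differed by -0.96 ± 0.26 in 2K1C (adjusted p 0.0978) and Hadh, the short-chain 3-hydroxyacyl-CoA dehydrogenase, by -0.87 ± 0.29 (0.128). All 6 genes of this step group lay below 0 in SHR, SHRSP and 2K1C, with a median of -0.92 in 2K1C and 1.03 between 1K1C and 2K1C.

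Unsaturated chains need auxiliary enzymes: the isomerases Eci1 and Eci2, the 2,4-dienoyl-CoA reductases Decr1 (mitochondrial) and Decr2 (peroxisomal), and Ech1. Decr1 measured 3.04, 3.97, 3.99 and 3.13 in untreated WKY, 2.13, 2.30, 3.06 and 2.48 in 2K1C and 3.82, 4.29, 3.79 and 3.28 in 1K1C. It measured 4.13, 2.87, 2.43 and 2.95 in SHR and 3.23, 3.60, 3.10 and 2.89 in SHRSP. Every 1K1C array exceeded every 2K1C array, and the difference of 1.30 ± 0.33 had a limma adjusted p of 0.073, the lowest among the members in that comparison, shared with Acat1, Cpt2, Decr2, Etfa, Etfdh and Hadh. Against untreated WKY the difference was -1.04 ± 0.33 in 2K1C (0.124), with untreated WKY replicate 1 inside the 2K1C range. Decr2 differed by -0.85 ± 0.22 (0.0978), Eci1 by -0.51 ± 0.21, Eci2 by -0.37 ± 0.18 and Ech1 by -0.40 ± 0.24 in 2K1C.

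The electron transfer flavoprotein, made of the subunits Etfa and Etfb, passes electrons from the dehydrogenases to its oxidoreductase Etfdh, and the 3 genes had a median difference of -1.06 in 2K1C, -0.74 in SHR and -0.68 in SHRSP. All 3 were lower on every 2K1C array than on every untreated WKY array and higher on every 1K1C array than on every 2K1C array. Etfa differed by -1.19 ± 0.32 in 2K1C (limma adjusted p 0.0978), and Etfb and Etfdh by -1.06 ± 0.31 (0.11) and -0.86 ± 0.29 (0.129). The Etfa probe, shown as the member of this group with the lowest adjusted p in 2K1C, maps to an interval longer than the probe, from chr8:59049497 to chr8:59050934 in rn4 (minus strand).

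Etfa probe: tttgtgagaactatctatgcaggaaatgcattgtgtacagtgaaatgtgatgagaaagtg

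Peroxisomal oxidation was measured by Ehhadh, the bifunctional enzyme of straight chains, Hsd17b4, that of branched chains, and Acaa1a, the peroxisomal thiolase. Their differences in 2K1C were -0.80 ± 0.47, -0.53 ± 0.24 and -0.42 ± 0.22, in SHR -0.63 ± 0.47, -0.16 ± 0.24 and -0.62 ± 0.22, and in SHRSP -0.26 ± 0.47, -0.29 ± 0.24 and -0.62 ± 0.22. For Acaa1a the limma adjusted p was 0.198 in SHR and 0.169 in SHRSP, and all SHRSP arrays lay below all untreated WKY arrays. Its second probe gave -0.32 and -0.36. A close paralog, Acaa1b, exists, and whether these probes separate them was not tested. The oxidases Acox2 and Acox3 act on branched chains. Acox2 was well above background on 0 of 20 arrays and Acox3 on 5, of which 2 were untreated WKY, 1 was 2K1C and 2 were 1K1C. Acox2 ranged from -8.08 to -6.13 over the arrays and Acox3 from -6.19 to -4.96.

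The 2 regulators lay on opposite sides of 0 in SHR, SHRSP and 2K1C against untreated WKY, and both lay below 0 in 1K1C, by -0.54 ± 0.37 for Ppara and -0.03 ± 0.43 for Pdk4. Ppara measured -2.49, -4.26, -3.92 and -4.46 in untreated WKY, -4.47, -4.86, -5.03 and -5.92 in 2K1C and -4.38, -4.17, -4.13 and -4.63 in 1K1C. It measured -4.42, -5.01, -5.24 and -5.67 in SHR and -4.66, -4.89, -4.75 and -5.31 in SHRSP. All 2K1C and SHRSP arrays lay below all untreated WKY arrays, and replicate 1 of untreated WKY, which also led in Ucp1, stood above its other 3. The highest 2K1C value, -4.467, lay just below the lowest untreated WKY value, -4.463. The difference was -1.30 ± 0.37 in SHR (0.0896), -1.29 ± 0.37 in 2K1C (0.111) and -1.12 ± 0.37 in SHRSP (0.137), with limma adjusted p in parentheses. Ppara was well above background on 3 of 4 arrays in SHR and in 2K1C, so the sizes of those differences are uncertain.

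Pdk4 encodes a kinase that shuts off pyruvate dehydrogenase when fat is burned. It measured -3.23, -4.85, -4.00 and -3.70 in untreated WKY, -3.46, -4.25, -3.41 and -3.92 in 2K1C and -4.12, -3.78, -4.04 and -3.99 in 1K1C. In SHR it measured -3.83, -2.57, -2.65 and -2.95, and in SHRSP -4.83, -3.72, -2.27 and -3.51. SHR replicates 2 to 4 lay above all untreated WKY arrays and replicate 1 among them, while the SHRSP arrays ran from -4.83 to -2.27. The difference was 0.95 ± 0.43 in SHR (limma adjusted p 0.329) and 0.36 ± 0.43 in SHRSP (0.712).

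Most arrays had the larger part of the members on 1 side of their means, also within groups. On 1K1C replicate 2, 20 of the 30 members reached their highest level of all 20 arrays, and on untreated WKY replicate 1 another 6 did (Acadl, Acadm, Cpt1b, Etfb, Ppara and Slc25a20). On 2K1C replicate 1, 15 members were at their lowest. Against each member's own mean over the 20 arrays, 28 members were above it on untreated WKY replicates 2 and 3 and on 1K1C replicates 1 to 3, and 27 on SHR replicate 1. Untreated WKY replicate 4 had 25 members below, 1K1C replicate 4 had 21, and SHR replicates 2 to 4 had 26 or 28. On the 2K1C arrays 24 to 28 members were below. Other arrays were mixed: untreated WKY replicate 1 had 21 above and 9 below, and the 4 SHRSP arrays had 23, 14, 18 and 28 below. The median deviation of the members was 0.29 ± 0.27 (SD, n = 4) in untreated WKY, -0.41 ± 0.20 in 2K1C, 0.44 ± 0.43 in 1K1C, -0.21 ± 0.48 in SHR and -0.16 ± 0.19 in SHRSP.

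**Figure D3:**
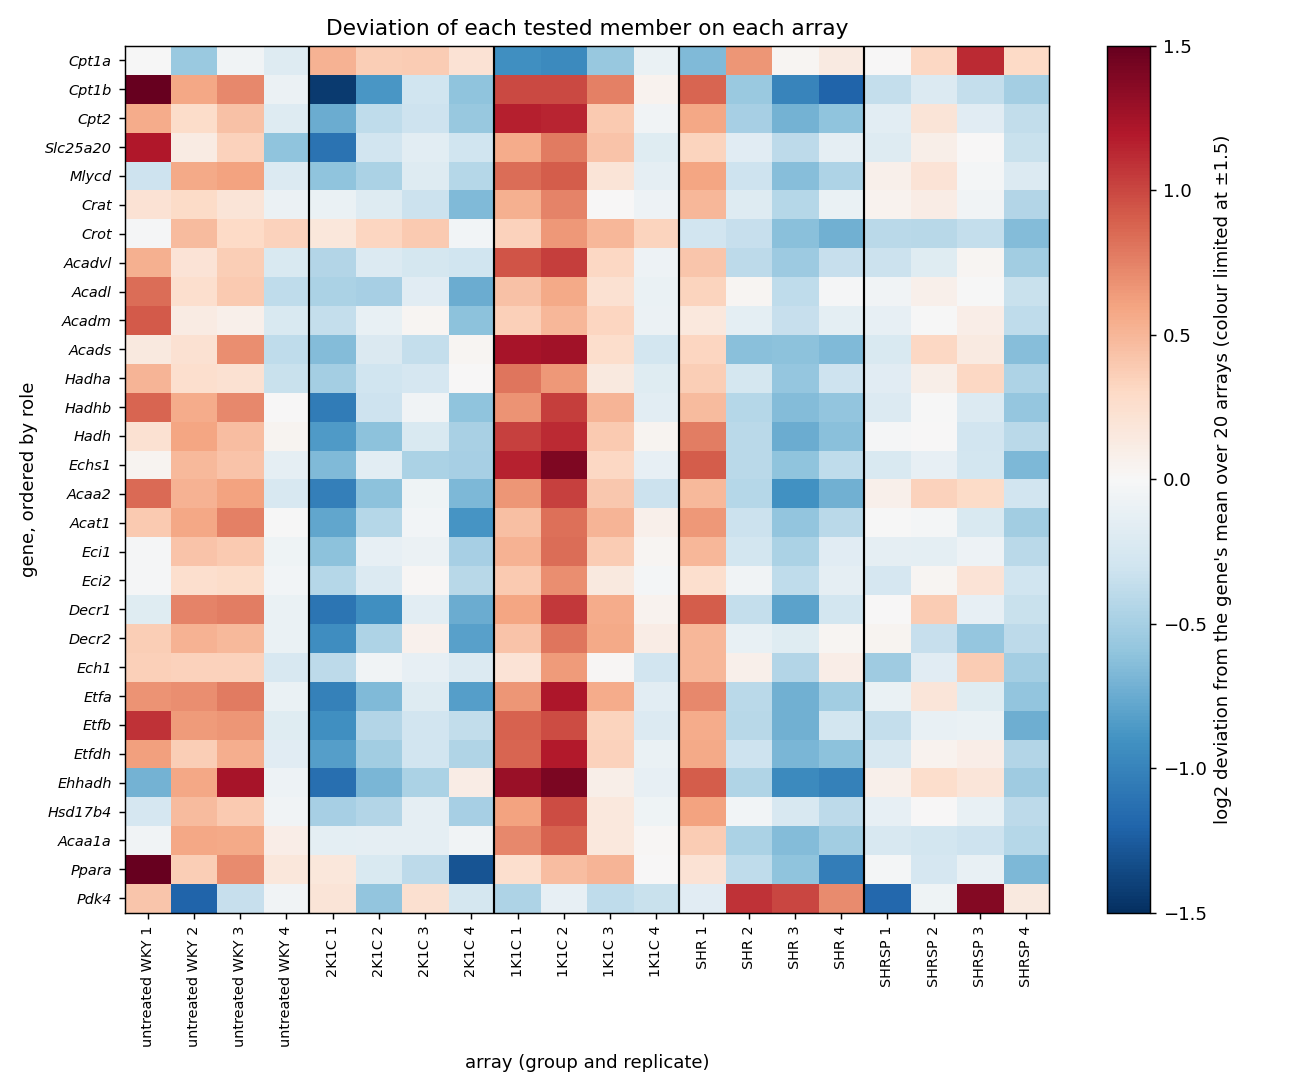
Log2 deviation of each tested member (rows, ordered by role) from its own mean over the 20 arrays, on each array (columns, 4 per group), red above and blue below, with colour limited at 1.5 either way. Some columns are nearly of 1 colour, with 28 of 30 members above their mean on 1K1C replicates 1 to 3 and 26 or 28 below it on SHR replicates 2 to 4, while others are mixed, such as SHRSP replicate 2 with 16 above and 14 below.

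White adipocyte markers moved with the members over most arrays. Their summed level, in units of the 75th percentile and over 12 of 12 listed markers, ranged from 220 to 587 in untreated WKY, 144 to 276 in 2K1C, 343 to 797 in 1K1C, 249 to 710 in SHR and 223 to 412 in SHRSP. Adiponectin (Adipoq) averaged 6.50 ± 0.76 (SD, n = 4) in untreated WKY, 5.65 ± 0.42 in 2K1C, 7.01 ± 0.64 in 1K1C, 6.25 ± 0.71 in SHR and 6.08 ± 0.37 in SHRSP. Their median deviation was 1.31 on 1K1C replicate 2, 1.21 on SHR replicate 1 and -1.20 on 2K1C replicate 1. Untreated WKY replicate 1 departed from this, with members at 0.38 and white adipocyte markers at -0.60. Smooth muscle markers ran the other way on 1K1C replicates 2 and 1, with median deviations of -3.23 and -1.14, and on SHR replicate 1, at -1.03. They lay on the members' side of 0 on untreated WKY replicates 2 to 4, 2K1C replicate 4, 1K1C replicate 3 and SHRSP replicates 2 and 4. On the remaining arrays they lay on the opposite side. Their median difference between 1K1C and 2K1C was -1.71, with all 7 below 0 and at an unadjusted p under 0.05 and 0 called by limma, beside the members' 0.87, and their part in the members' differences was not tested. Brown adipocyte markers (8 of 10 on the array) summed to 14.3 to 177 in untreated WKY, 6.44 to 12.9 in 2K1C, 14.4 to 34.6 in 1K1C, 9.12 to 30.05 in SHR and 9.85 to 15.2 in SHRSP. The 5 tested brown adipocyte markers had a median difference from untreated WKY of -1.04 in SHRSP, with all 5 below 0, and of -0.20 in SHR and -1.15 in 2K1C, with 4 below 0 in each, and Ucp1 was well above background on 14 of 20 arrays. In such bulk samples fewer cells of a type and less RNA per cell cannot be told apart.

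With the mean of the white adipocyte markers as a covariate, added after seeing the data, the median of the members was -0.23 in 2K1C against untreated WKY, 0.28 in 1K1C against 2K1C, -0.33 in SHR and -0.22 in SHRSP. Without the 2 arrays highest in Ucp1 these medians were -0.67, 0.95, -0.49 and -0.40, and without the array lowest in Myh11 the 1K1C minus 2K1C median was 0.72. Without SHR replicate 1 the SHR median was -0.72.

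**Figure D4:**
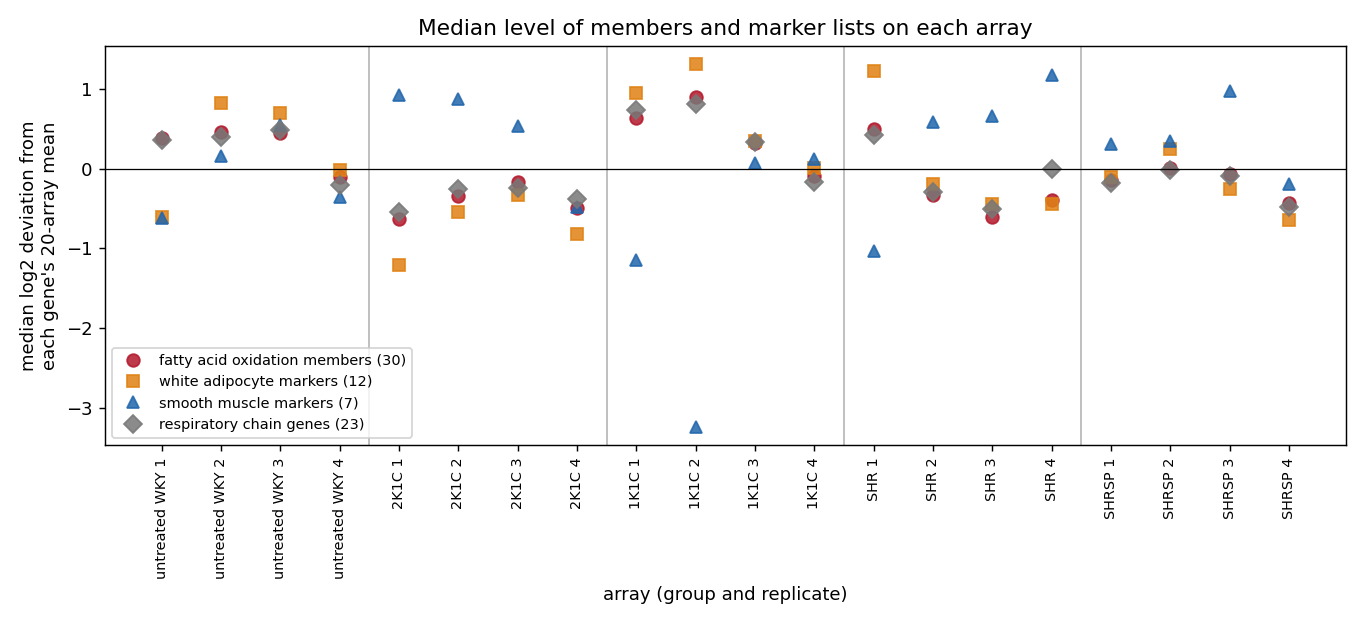
Median log2 deviation (y axis) of 30 members, 12 white adipocyte markers, 7 smooth muscle markers and 23 respiratory chain genes on each array (x axis, 4 per group), each gene set against its own mean over 20 arrays. Members and respiratory chain genes lie close together on most arrays, at 0.90 and 0.81 on 1K1C replicate 2, where smooth muscle markers fall to -3.23. On SHR replicate 4 the members (-0.39) and the respiratory chain genes (0.0002) lie apart.

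Genes around the pathway were taken from 10 lists with 166 genes, of which 151 were tested. The 15 citric acid cycle genes had a median of -0.66 in 2K1C, -0.44 in SHR and SHRSP, and 0.79 between 1K1C and 2K1C, with all 15 on that side of 0. The 23 respiratory chain genes had medians of -0.60, -0.42, -0.49 and 0.78 in 2K1C, SHR, SHRSP and 1K1C minus 2K1C, again with all on 1 side. Limma called none of these 2 lists in any comparison, although at an unadjusted p under 0.05 there were 12 citric acid cycle and 18 respiratory chain genes in 2K1C against untreated WKY and 15 and 23 in 1K1C against 2K1C. Of all 151, 2 were called in SHR (1.32%, against 1.85% of all genes) and 4 in SHRSP (2.65%, against 2.4%) against untreated WKY, shares near those of all genes, and 0 in the other comparisons, where 81 (2K1C), 10 (1K1C), 114 (1K1C against 2K1C) and 2 (SHRSP against SHR) had an unadjusted p under 0.05.

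These 6 calls fell on 5 genes. Acsf2, a medium-chain acyl-CoA synthetase, was well above background on 3 untreated WKY arrays and on 0 of the 8 SHR and SHRSP arrays. It was at least 2.01-fold lower in SHR and at least 1.76-fold lower in SHRSP (limma adjusted p 0.000326 and 0.0266). For this each SHR and SHRSP array was set at its lowest signal well above background, or at the gene's own value where that was higher. The untreated WKY mean includes an array not well above background, so these bounds are uncertain. The coactivator Ppargc1a, a partner of PPAR-alpha, fell by 1.37 ± 0.32 in SHR (0.0351), where 1 of 4 arrays was well above background. In SHRSP Nudt7, a peroxisomal CoA hydrolase, fell by 0.83 ± 0.17 (0.0111). Bdh1, the ketone body enzyme 3-hydroxybutyrate dehydrogenase, fell by 2.86 ± 0.66 (0.0277) there with 1 of 4 SHRSP arrays well above background. Slc25a34, a mitochondrial carrier, rose by 2.28 ± 0.46 (0.0124), with 2 of 4 untreated WKY arrays well above background. The differences of Ppargc1a, Bdh1 and Slc25a34 thus include values not well above background, and their sizes are uncertain.

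RefSeq windows of 300 bases, from 250 before to 50 after the gene start, were found for 27 of the 32 members, but not for Ech1, Decr1, Acaa2, Acadl and Cpt1b. The GC box GGGCGG, on either strand, occurred in 23 of 27 (85.2%), against 33.1% of all 33469 windows and 60.0% of the 9632 windows of tested genes. The nuclear receptor half-site AGGTCA, which a PPAR response element holds in duplicate, occurred in 6 of 27 (22.2%), against 16.2% and 12.6%. These were Acadvl, Echs1, Eci1, Eci2, Hadhb and Hsd17b4. The direct repeat of that half-site with 1 base between occurred in 0 of 27 and in 0.0538% of all windows, on either strand. A match describes letters in the window only.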

How the data were processed

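Cy3-labelled cRNA from each whole mesenteric artery sample was read on an Agilent rat array of 60-base probes. Per the submitters' processing notes, the authors made the signal intensity of each spot with Agilent Feature Extraction 10.7.3.1, and per the file headers it is background-subtracted and linear. The deposited value table holds the same intensity, unscaled, on all 20 arrays.

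Control features were dropped, as were features with an outlier flag (from 301 to 684 on an array), replicate spots were averaged, and log2 of the processed signal was taken minus the array's 75th percentile, which ran from 574.5 to 1193. From 66.5% to 71.7% of spots were well above background, and 0 were saturated. The value of each of the 32 members was present on all 20 arrays. Each of 26214 gene names took the probe with the highest mean (30367 probes in all), and 16407 genes passed the filter. Group means were fitted with limma 3.58.1 in R 4.3.3 over all 5 groups, and 6 comparisons were tested with Benjamini-Hochberg adjustment. The code was tested on simulated data.

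Members and lists were chosen with earlier results of these data known. Values are given for every array for members called anywhere, for the 2 members with the largest difference in each comparison, and for Ppara, Pdk4, Cpt1a, Cpt1b, Hadha, Hadhb, Acadl and Acadm. Of the lists around the pathway, called genes are named, up to 4 per comparison. Marker lists of 11 cell types were measured. Brown and white adipocytes, smooth muscle, endothelium and the markers called are given in the report. In 2K1C against untreated WKY the median difference was 0.45 for smooth muscle and 0.41 for endothelium. The other lists were hepatocytes, neurons, striated muscle, exocrine pancreas and intestine, macrophages, lymphocytes and mesothelium, with median differences in 2K1C against untreated WKY of 0.88, -2.00, -0.11, -0.43, -0.14, 1.81 and -1.60, and those in SHR and SHRSP stand beside the Crot result. Between 1K1C and 2K1C their medians, in the same order, were -1.14, -0.53, -0.06, 1.07, 0.57, -1.28 and 0.81. Brown adipocyte markers had a median of 1.35 in that comparison and endothelial markers one of -0.07. The part of these cell types in the members' differences was not tested. Alternatives covered scaling, background correction, the filter, the probe of a gene, the arrays in the fit, array weights and blocks.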

Additional observations from a re-analysis of the deposited data

Results flagged for a closer look

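In 7 of 150 sets of 4 arrays (30 members in 5 groups) 1 array stood apart from the other 3 by more than Dixon's 95% critical value, and chance flags about 1 set in 20. SHR replicate 1 stood apart for 3 members. Cpt2 measured 1.82 there against 0.53 to 0.74 on the other SHR arrays, Acads 2.99 against 2.00 to 2.06, and Echs1 5.13 against 3.62 to 3.83. Untreated WKY replicate 4 was low for Ech1, at 2.45 against 3.02 to 3.04, and for Etfa, at 0.59 against 1.37 to 1.47. In 2K1C, replicate 1 was low for Slc25a20, at -0.72 against 0.09 to 0.22, and replicate 3 was high for Hsd17b4, at 2.91 against 2.54 to 2.60.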

How the results depend on the processing

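The number of members called was 1 in SHR and in SHRSP against untreated WKY and 0 elsewhere. With array weights it was 28 in SHR, 16 in SHRSP, 19 in 2K1C, 2 in SHRSP against SHR and 14 in 1K1C against 2K1C. With the deposited values unscaled, or with only the 2 groups compared in the fit, it was 0 in SHR and in SHRSP. With no filter on dim probes it was 2 in SHRSP (Acox2 and Crot), and with the white adipocyte covariate, added after seeing the data, 2 in SHR (Acaa1a and Crot). Leaving out 1 array at a time gave 1 to 7 calls in SHR, 1 to 2 in SHRSP, 0 to 10 in 2K1C and 0 to 23 in 1K1C against 2K1C. In 1K1C against untreated WKY the count was 0 under every alternative run. The cause of these changes was not tested. Same-numbered replicates did not all deviate together from their group means, with correlations from -0.37 to 0.57. The main fit therefore did not pair the arrays by the titles' numbers, but such correlations cannot show whether the numbers pair them. With the replicate block the count was 2 in SHR and 2 in SHRSP (Crot and Ppara), and 0 elsewhere. The slide block could be fitted only within a slide, for SHRSP against SHR and 1K1C against untreated WKY, with 0 calls each. Over all genes the calls ranged from 102 to 7135 in SHR, 161 to 5062 in SHRSP, 0 to 4183 in 2K1C, 0 to 395 in 1K1C, 29 to 797 in SHRSP against SHR and 0 to 1899 in 1K1C against 2K1C. Of 1530 alternative values of the 12 members given array by array, 77 had another sign than the main value, none of them in a comparison where that member was called. Unscaled values moved the median of all genes to -0.19 in 2K1C and 0.17 in SHRSP, and median scaling moved it to 0.18 in 1K1C and 0.12 in SHR. The members' medians were then -0.91, -0.21, 0.24 and -0.33.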

Other observations

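Genes of malonyl-CoA and fatty acid synthesis, the opposing pathway, lay furthest apart between the operated groups among the lists around fatty acid oxidation. Their 10 tested genes had a median log2 difference of 1.62 between 1K1C and 2K1C, and against untreated WKY of 0.88 for the 1K1C rats and -0.58 for the 2K1C rats, and all 10 lay above 0 in the first 2 of these. The 12 pyruvate dehydrogenase genes had medians of 1.29, 0.54 and -0.78. Limma called none of either list, with 9 and 10 genes at an unadjusted p under 0.05 between 1K1C and 2K1C. White adipocyte markers, 12 tested, had medians of 1.31, 0.45 and -0.96 in the same comparisons, and their part in these values was not tested.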
